A study of Mus musculus with 60 samples.

Results

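The 10 iron storage and transport genes Fth1, Ftl1, Ncoa4, Tfrc, Steap3, Slc11a2, Slc40a1, Slc11a1, Aco1 and Ireb2 were followed in mouse whole blood. They were chosen by name, and each matched 1 of the 49315 genes in the count tables. RNA sequencing was done on blood from 60 male CD2F1 mice purchased at 5 to 6 weeks of age, in 10 groups of 6, each library coming from a different mouse. BIO300 is an oral formulation of synthetic genistein, a soy isoflavone studied as a radiation countermeasure, and the study asked how it changed the blood transcriptome at different doses and after total-body irradiation (TBI). All mice were dosed by mouth each morning and evening for 6 days with vehicle (water, methylcellulose and polyvinylpyrrolidone) or with BIO300. The mg/kg values are those of a single dose. Day 0 fell 24 h behind the final dose, and blood was then taken from vehicle mice and from mice given 50, 100 or 200 mg/kg. On the next day, Day 1, 48 h behind the final dose, those 4 treatments were sampled without irradiation, and vehicle and 200 mg/kg mice were sampled 24 h after 9.2 Gy of gamma-radiation. Each mouse was bled once, so Day 0 and Day 1 mice are different animals. The doses, times and radiation dose come from the study's methods, while the labels call the dose groups Low, Med and High.

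Iron enters most cells when transferrin binds the transferrin receptor and is carried into an endosome, where the metal is reduced and pumped out into the cytosol. There it is used for haem and iron-sulphur clusters, stored in shells of ferritin, or sent out of the cell by ferroportin. Reticulocytes, the young red cells in blood, are known for high transferrin receptor and ferritin transcript levels, while blood and tissue phagocytes recover iron from engulfed red cells. Iron regulatory proteins bind hairpins in the untranslated regions (UTRs) of several of these transcripts when iron is scarce, blocking translation of ferritin and ferroportin and protecting the transferrin receptor transcript.

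These hairpins, iron-responsive elements, connect the members to each other, so the sites found are shown. UTRs of protein-coding transcripts of GENCODE M21 (GRCm38, the build the authors aligned to) were searched on the transcript strand for a C, any 5 bases and then CAGTGN, N being any base, in which the 5 bases before CAGTGN could pair with the 5 after it, G-T pairs allowed. Capitals mark the 6-base loop, and each line is read 5′ to 3′ on the transcript.
Fth1 5′ UTR, chr19:9982732-9982761, plus strand: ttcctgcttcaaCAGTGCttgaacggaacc
Ftl1 5′ UTR, chr7:45459778-45459807, minus strand: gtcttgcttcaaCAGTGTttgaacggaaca
Slc40a1 5′ UTR, chr1:45925464-45925493, minus strand: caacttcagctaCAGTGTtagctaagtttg
Tfrc 3′ UTR, site 1, chr16:32631219-32631248, plus strand: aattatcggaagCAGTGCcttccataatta
Tfrc 3′ UTR, site 2, chr16:32631598-32631627, plus strand: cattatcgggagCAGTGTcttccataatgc
Tfrc 3′ UTR, site 3, chr16:32631663-32631692, plus strand: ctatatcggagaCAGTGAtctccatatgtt
Tfrc 3′ UTR, site 4, chr16:32631710-32631739, plus strand: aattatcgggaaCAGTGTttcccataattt
Of all genes with a 5′ UTR in that annotation, 28 of 20873 (0.134%) held the pattern there, and of those with a 3′ UTR, 127 of 21669 (0.586%) did. Both ferritin genes and ferroportin carried 1 site before the coding sequence, and the transferrin receptor gene carried 4 after it. The other 6 members had no match to these letters in their annotated UTRs, which says nothing of related hairpins with other letters. The counts measured transcripts and hold no reading of translation.

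Libraries held 15099415 to 45589415 counts in genes (median 24877993.5), which bounds the precision of the rarer members. The fewest counts in a mouse were those of Slc11a1 (79 to 3136) and Steap3 (83 to 1187), while Ftl1, the most abundant member, was counted 68041 to 665146 times. Levels are given as counts per 1000000 (CPM) with trimmed mean of M-values (TMM) scaling across the 60 mice, and differences come from edgeR's quasi-likelihood test fitted to all genes of the groups compared, where "passed the test" means a Benjamini-Hochberg adjusted p under 0.05. TMM factors were 0.485 to 0.680 in 100 mg/kg and 0.415 to 0.646 in 200 mg/kg mice on Day 1, against 1.15 to 1.63 in vehicle Day 1 and 1.39 to 2.02 in 50 mg/kg Day 0 mice, and scaling to total counts instead moved the median log2 fold change over all genes from -0.38 to -1.76 and from -0.48 to -1.96 in the 2 Day 1 comparisons of 100 and 200 mg/kg with vehicle, and from 0.03 to 0.69 in that of 50 mg/kg on Day 0. Values or counts of calls of the members on total counts are therefore given beside those with TMM. The 4 globin genes took 8.30 to 12.4% of counts in vehicle Day 1, 14.0 to 22.5% in 100 mg/kg and 10.8 to 22.1% in 200 mg/kg Day 1 mice. In 10 mice from 9 groups at least 10 of 16 hepatocyte markers exceeded 10 CPM, and calls of members that changed without them are given both ways. In blood, fewer cells of a type and less RNA per cell cannot be told apart.

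Counted over the 10 members, 8 passed the test as higher and 1 as lower in 100 mg/kg mice on Day 1 against vehicle Day 1, where 65.6% of all genes tested passed, 25% as higher and 40.6% as lower. In 200 mg/kg mice on Day 1 the counts were again 8 and 1, beside 63.5% of all genes, 23.6% higher and 39.9% lower. The members' median log2 fold change in these comparisons was 1.44 and then 1.53, beside -0.38 and -0.48 over all genes tested. Scaled to total counts, 4 members passed as higher and 3 as lower at 100 mg/kg, and 3 and 5 at 200 mg/kg, while on that scale 7.72% of all genes passed as higher and 68.5% as lower at 100 mg/kg, and 6.63% and 71.2% at 200 mg/kg. Fth1, Ftl1 and Tfrc passed as higher on both scales at both doses.

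On Day 0 the direction was the other way in the 50 mg/kg group, in which 6 members passed as lower and none as higher, beside 14.1% of all genes passing, 9.87% as lower and 4.21% as higher. The median log2 fold change over the 10 members was -0.70, beside 0.03 over all genes. On total counts, 4 members passed as lower, beside 3.61% of all genes, and 3 as higher, beside 49.4%. No member passed at 100 or 200 mg/kg on Day 0, where 0% of all genes passed, nor at 50 mg/kg on Day 1 (0.00829% of all genes), nor between the vehicle groups of the 2 days (0%). With edgeR, 1, 0, 7 and 3 members had an unadjusted p under 0.05 in these 4 comparisons, beside 726 of 24000, 2145 of 23795, 4458 of 24118 and 3007 of 24375 genes. DESeq2's Wald test passed 0, 0, 2 and 1 members, beside 5, 4, 1205 and 777 of the same numbers of genes.

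After irradiation, 7 members passed as higher and none as lower in vehicle mice against unirradiated vehicle Day 1 mice, beside 46.8% of all genes passing, 24.4% as higher and 22.4% as lower. The members' median log2 fold change was 1.45, beside 0.09 over all genes. On total counts 5 passed, all as higher, beside 15.3% of all genes. Against the vehicle Day 0 mice, sampled 24 h sooner after the last dose, 5 members passed as higher, beside 36.4% of all genes, 19.6% as higher. Without the mice with liver transcripts Ftl1 passed too (1.25, adjusted p = 0.00943). On total counts 4 of the 5 passed (14.4% of all genes as higher), Steap3 missed the threshold (1.13, adjusted p = 0.0697), and Ncoa4 passed as lower (-1.05 ± 0.32, adjusted p = 0.0275, beside 14.2% of all genes as lower). In irradiated mice given 200 mg/kg against irradiated vehicle mice, none of the 10 passed in edgeR and none in DESeq2 (0% of all genes in both), and none had an unadjusted p under 0.05. These comparisons share their vehicle groups, so their counts are not independent of each other.

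**Figure D1:**
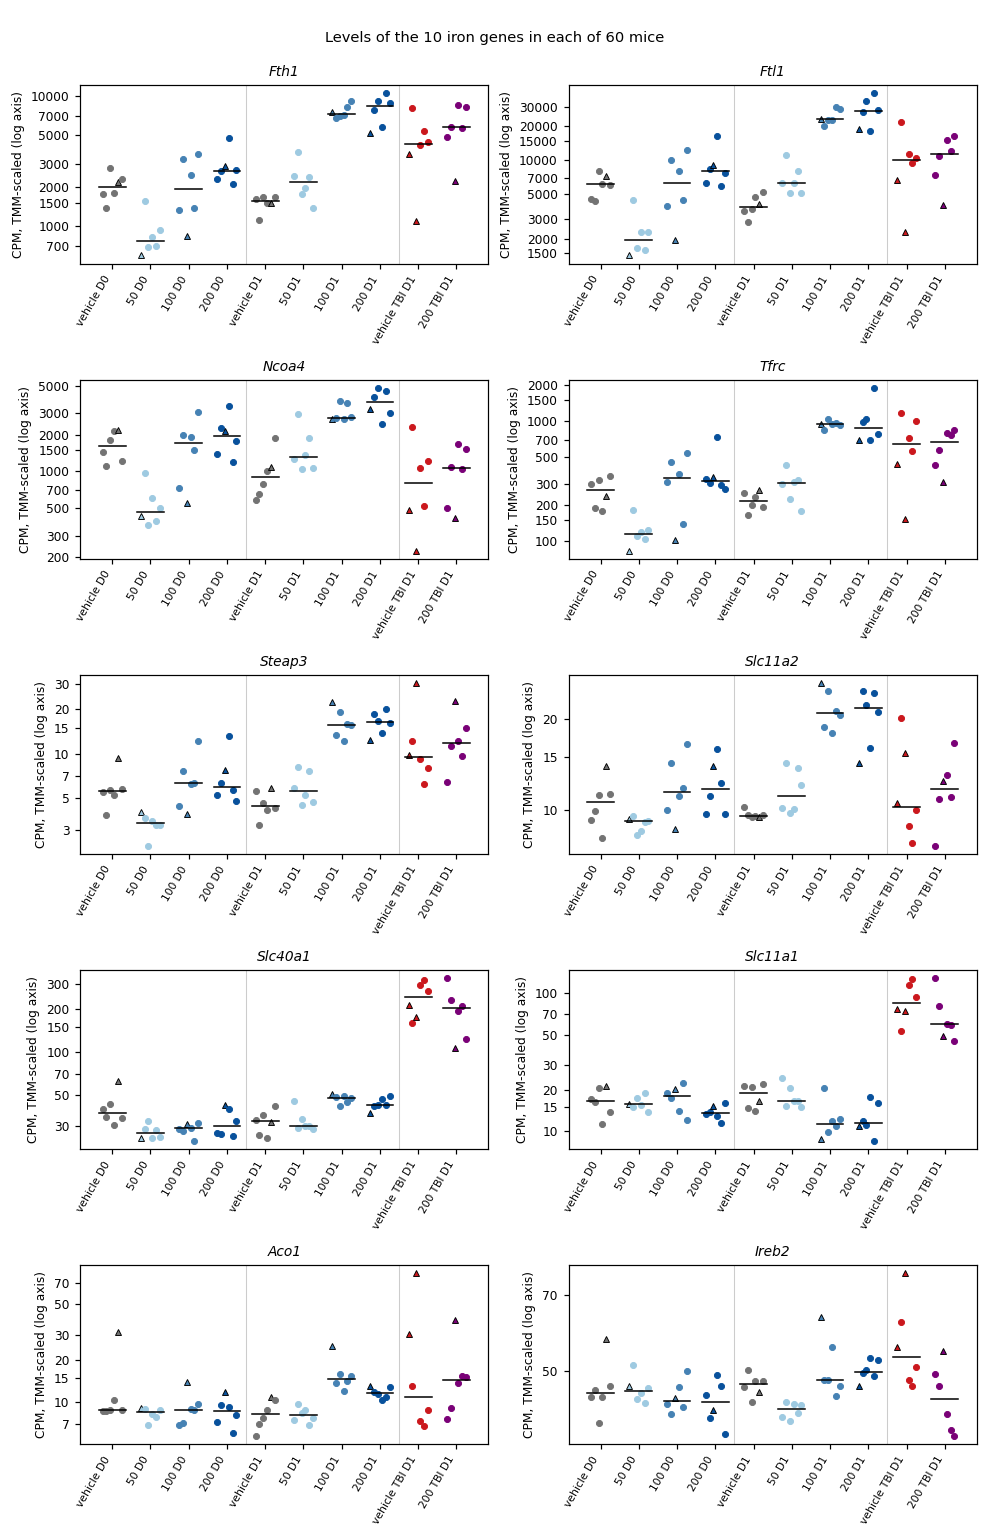
Level of each member in each of 60 mice, as TMM-scaled CPM on a log axis, for the 10 groups in columns (D0 and D1 are Day 0 and Day 1, numbers are the BIO300 dose in mg/kg). Each point is 1 mouse, bars are group medians and black-edged triangles are the 10 mice with liver transcripts, and the highest medians are those of the unirradiated 100 and 200 mg/kg Day 1 groups for Fth1, Ftl1 and Tfrc and of the irradiated groups for Slc40a1 and Slc11a1.

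Among the storage genes, Fth1 (ENSMUSG00000024661, chr19:9980598-9985098, plus strand) encodes ferritin heavy chain, the subunit that oxidises iron on its way into the shell. On Day 0, Fth1 was at 1379 to 2794 (median 1981) CPM in vehicle mice, 590.4 to 1539.8 (median 759) at 50 mg/kg, 831 to 3574 (median 1919.9) at 100 mg/kg and 2103 to 4728 (median 2666) at 200 mg/kg. On Day 1 it was at 1111 to 1671 (median 1553) CPM in vehicle mice, 1359 to 3699 (median 2165) at 50 mg/kg, 6814 to 9212 (median 7278) at 100 mg/kg and 5146 to 10506 (median 8343) at 200 mg/kg. Every mouse of the 100 and 200 mg/kg groups lay above every vehicle mouse on Day 1, as was the case for 47.6% and 47% of all genes (either direction). The log2 fold change was 2.40 ± 0.21 (SE) at 100 mg/kg (edgeR adjusted p = 3.09e-07) and 2.46 ± 0.23 at 200 mg/kg (adjusted p = 4.82e-07), or 1.00 and 0.90 on total counts, which also passed. At 50 mg/kg on Day 0 Fth1 fell, with a log2 fold change of -1.21 ± 0.25 (adjusted p = 0.00739) and of -0.56 on total counts, although the highest 50 mg/kg mouse overlapped the vehicle range. Irradiated vehicle mice held 1089.7 to 8062 (median 4292) CPM and irradiated 200 mg/kg mice 2211 to 8473 (median 5753), the former ranging from below every vehicle Day 1 mouse to within the 200 mg/kg Day 1 range. Irradiation raised Fth1 against vehicle Day 1 by 1.53 ± 0.38 (adjusted p = 0.00579), and by 1.89 without the mice with liver transcripts.

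Ftl1 (ENSMUSG00000050708, chr7:45457944-45459884, minus strand), the light chain, supports mineral formation inside the shell. It was the most abundant member in every group, also per kilobase of exon, at 2901 CPM per kb in vehicle Day 1 mice against 448 for Fth1, 95.7 for Ncoa4 and 35.0 for Tfrc (group medians), while the other 6 members were each under 10 there. On Day 1, Ftl1 was at 2870.0 to 5253 (median 3887) CPM in vehicle mice, 5152 to 11103 (median 6346) at 50 mg/kg, 20123 to 29619 (median 23075) at 100 mg/kg and 18152 to 39471 (median 27512) at 200 mg/kg. Together with Fth1 it took 0.651 to 0.860% of all counts in vehicle Day 1 mice, 1.45 to 1.93% in 100 mg/kg mice and 1.34 to 2.07% in 200 mg/kg mice, with no overlap between vehicle and either dose. The log2 fold changes of Ftl1 were 2.66 ± 0.33 at 100 mg/kg (adjusted p = 8.03e-06) and 2.84 ± 0.32 at 200 mg/kg (adjusted p = 2.54e-06), or 1.28 and 1.29 on total counts, again passing. On Day 0 it was at 4401 to 8026 (median 6144) CPM in vehicle mice and 1437 to 4499.8 (median 1979.9) at 50 mg/kg, a change of -1.39 ± 0.32 (adjusted p = 0.0123). The 100 and 200 mg/kg groups of Day 0 held 1978 to 12348 (median 6278) and 5888 to 16356 (median 8093) CPM and overlapped the vehicle mice. Irradiated vehicle mice held 2329 to 22099.8 (median 10009) and irradiated 200 mg/kg mice 4054 to 16329 (median 11475) CPM. Ftl1 rose with irradiation against vehicle Day 1 (1.34 ± 0.45, adjusted p = 0.0278), a call lost without irradiated mouse 50 (log2 fold change 0.99) or without any one of vehicle mice 25 to 29, with adjusted p up to 0.0726, while against vehicle Day 0 the value was 0.90 ± 0.50 (adjusted p = 0.180) and passed only without the mice with liver transcripts (1.25, adjusted p = 0.00943).

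In some comparisons the 2 chains moved by different amounts. The log2 ratio of Ftl1 to Fth1 counts within a library, which no scaling between libraries changes, was 1.41 ± 0.23 (SD, n = 6) in vehicle Day 1 mice, 1.68 ± 0.10 in 100 mg/kg mice and 1.79 ± 0.11 in 200 mg/kg mice of that day, 1.16 ± 0.26 in irradiated vehicle mice and 0.88 ± 0.16 in irradiated 200 mg/kg mice. Every irradiated 200 mg/kg mouse lay below every unirradiated 200 mg/kg mouse, with a mean difference of -0.91 (2-sided exact permutation p = 0.00216, the smallest that 6 mice against 6 allow). The ratio was higher at 200 mg/kg than in vehicle on Day 1 (exact permutation p = 0.00649, Benjamini-Hochberg 0.0204) and lower in irradiated vehicle than in vehicle Day 0 mice (exact p = 0.0152, Benjamini-Hochberg 0.0410). Irradiated vehicle and vehicle Day 1 mice differed by -0.24 (exact permutation p = 0.128). In all, 176 within-library ratio differences were tested, and Benjamini-Hochberg values are over that family, in which a p of 0.00216 corresponds to 0.00886.

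Reads of ferritin pseudogenes can be confused with those of the parent genes. The 5 pseudogenes or retrogenes in the tables, Ftl1-ps1, Ftl1-ps2, Ftl2, Fth-ps2 and Fth-ps3, were also counted, all below their parents. Ftl1-ps1 was the highest, at 11.9 to 21.5 (median 15.2) CPM in vehicle Day 1 and 79.8 to 184 (median 142) in 200 mg/kg Day 1 mice. Fth-ps2 went another way, with 0.369 to 0.724 (median 0.439) CPM in vehicle Day 1, 0 to 0.36 (median 0) in 100 mg/kg Day 1 and 0.735 to 2.43 (median 1.36) in irradiated vehicle mice. The part of shared reads in these values was not tested.

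Ncoa4 (ENSMUSG00000056234, chr14:32159865-32179855, plus strand) encodes the receptor that carries ferritin to lysosomes, where its iron is released. On Day 0 it was at 1103 to 2177 (median 1623) CPM in vehicle mice, 368 to 971 (median 467) at 50 mg/kg, 549 to 3040.0 (median 1706) at 100 mg/kg and 1185 to 3407 (median 1949) at 200 mg/kg. Every 50 mg/kg mouse lay below every vehicle mouse on Day 0 (6.93% of all genes had no overlap in that comparison), and Ncoa4 was the only member of which this held. Its log2 fold change was -1.58 ± 0.27 (adjusted p = 0.00272), or -0.93 on total counts. On Day 1 it was at 590.5 to 1867 (median 897) CPM in vehicle mice, 1041 to 2940.2 (median 1318) at 50 mg/kg, 2685 to 3786 (median 2742) at 100 mg/kg and 2422 to 4771 (median 3651) at 200 mg/kg. It rose on the log2 scale by 1.66 ± 0.27 at 100 mg/kg (adjusted p = 1.09e-04) and 1.94 ± 0.29 at 200 mg/kg (adjusted p = 4.47e-05), whereas on total counts the values were 0.31 ± 0.19 (adjusted p = 0.161) and 0.44 ± 0.20 (adjusted p = 0.0501) and missed the threshold. Vehicle mice after irradiation held 227 to 2295 (median 799) CPM, a log2 difference of -0.07 ± 0.49 from vehicle Day 1 (adjusted p = 0.910), and irradiated 200 mg/kg mice held 417 to 1671 (median 1068). The log2 ratio of Ncoa4 to Fth1 counts was -2.36 ± 0.63 in irradiated vehicle against -0.69 ± 0.56 in vehicle Day 1 mice, with no overlap (exact permutation p = 0.00216), and -2.55 ± 0.35 against -1.10 ± 0.31 in irradiated and unirradiated 200 mg/kg mice (exact p = 0.00216).

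Among the uptake genes, Tfrc (ENSMUSG00000022797, chr16:32608920-32632794, plus strand) encodes transferrin receptor 1, which brings transferrin-bound iron into the cell. It was at 179 to 348 (median 267) CPM in vehicle mice on Day 0, 83.1 to 182 (median 113) at 50 mg/kg, 101 to 544 (median 337) at 100 mg/kg and 268 to 741 (median 316) at 200 mg/kg. On Day 1 it was at 164 to 267 (median 217) CPM in vehicle mice, 176 to 428 (median 304) at 50 mg/kg, 841 to 1048 (median 945) at 100 mg/kg and 696 to 1877 (median 880.2) at 200 mg/kg. Neither of the 2 higher doses overlapped vehicle on Day 1, and the rises were 2.17 ± 0.14 (adjusted p = 2.42e-08) and 2.28 ± 0.24 (adjusted p = 1.49e-06), or 0.77 and 0.69 on total counts. At 50 mg/kg on Day 0 Tfrc fell (log2 fold change -1.12 ± 0.21, adjusted p = 0.00412, and -0.48 on total counts, adjusted p = 0.0349), with the highest 50 mg/kg mouse inside the vehicle range. Irradiated vehicle mice held 152 to 1163 (median 645) CPM and irradiated 200 mg/kg mice 308 to 836 (median 669). The irradiated vehicle group rose by 1.60 ± 0.39 against vehicle Day 1 (adjusted p = 0.00468), with 1 mouse, number 51, one of the mice with liver transcripts, below every vehicle mouse. The log2 ratio of Tfrc to Fth1 changed by -0.21 at 100 mg/kg, -0.21 at 200 mg/kg and 0.03 with irradiation, none past the test (exact permutation p = 0.130, 0.219 and 0.877).

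Steap3 (ENSMUSG00000026389, chr1:120190757-120272705, minus strand) encodes the ferrireductase of the endosome that prepares transferrin iron for export to the cytosol. It was a low transcript, at 3.24 to 5.80 (median 4.41) CPM in vehicle Day 1 mice, 4.47 to 8.08 (median 5.55) at 50 mg/kg, 12.3 to 22.6 (median 15.8) at 100 mg/kg and 12.4 to 20.3 (median 16.4) at 200 mg/kg. Both higher doses lay wholly above vehicle, by 1.90 ± 0.17 (adjusted p = 4.60e-07) and 1.90 ± 0.17 (adjusted p = 2.60e-07), while on total counts the values were 0.51, which passed, and 0.35 (adjusted p = 0.0796). On Day 0 it was at 3.78 to 9.31 (median 5.58) CPM in vehicle mice and 2.36 to 3.96 (median 3.36) at 50 mg/kg, a log2 fold change of -0.80 ± 0.19 (adjusted p = 0.0131) that was -0.11 on total counts (adjusted p = 0.608). The 100 and 200 mg/kg groups of Day 0 held 3.88 to 12.3 (median 6.27) and 4.77 to 13.1 (median 5.96) CPM. Vehicle mice after irradiation held 6.19 to 30.2 (median 9.50) CPM, all above the vehicle Day 1 mice (25.1% of all genes had no overlap in that comparison), and irradiated 200 mg/kg mice 6.44 to 22.7 (median 11.7). Irradiation raised Steap3 by 1.41 ± 0.34 (adjusted p = 0.00496), by 1.05 without the mice with liver transcripts (adjusted p = 4.00e-04), and on total counts the value was 1.13 (adjusted p = 0.0526). The highest Steap3 level was in a mouse with liver transcripts in 6 of the 10 groups, both irradiated groups among them.

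Slc11a2 (ENSMUSG00000023030, chr15:100387898-100425072, minus strand) encodes DMT1, the transporter through which endosomal iron reaches the cytosol. Its levels were narrow among vehicle Day 1 mice, at 9.48 to 10.3 (median 9.61) CPM, and ran 9.80 to 14.4 (median 11.2) at 50 mg/kg, 18.1 to 26.3 (median 21.0) at 100 mg/kg and 14.3 to 24.8 (median 21.8) at 200 mg/kg. It passed as higher at 100 mg/kg (1.22 ± 0.10, adjusted p = 1.42e-07) and 200 mg/kg (1.15 ± 0.14, adjusted p = 4.97e-06), but on total counts the sign turned, to -0.18 (adjusted p = 0.269) and -0.41 (adjusted p = 0.0163). On Day 0 it was at 8.10 to 14.0 (median 10.6) CPM in vehicle mice, 8.32 to 9.59 (median 9.2) at 50 mg/kg, 8.72 to 16.6 (median 11.5) at 100 mg/kg and 9.73 to 16.0 (median 11.8) at 200 mg/kg. Irradiated vehicle mice held 7.82 to 20.2 (median 10.3) and irradiated 200 mg/kg mice 7.66 to 16.8 (median 11.8) CPM, and the irradiation difference in vehicle mice was 0.29 ± 0.21 (adjusted p = 0.271).

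The export gene Slc40a1 (ENSMUSG00000025993, chr1:45908068-45926523, minus strand) encodes ferroportin, the known cellular iron exporter, abundant in macrophages and erythroid cells. Unirradiated groups held low levels of it, with medians between 26.8 CPM at 50 mg/kg on Day 0 and 47.8 at 100 mg/kg on Day 1. Vehicle Day 1 mice were at 24.7 to 41.4 (median 32.7) CPM, 100 mg/kg Day 1 mice at 42.0 to 50.3 (median 47.8) and 200 mg/kg Day 1 mice at 37.1 to 48.9 (median 42.7). Irradiated vehicle mice were at 159 to 323 (median 243) CPM and irradiated 200 mg/kg mice at 107 to 331 (median 203), so that each irradiated mouse exceeded each of the 48 unirradiated ones. The share of all genes with that separation was not determined. Between irradiated vehicle and vehicle Day 1 mice alone, 25.1% of all genes had no overlap. The irradiation rise against vehicle Day 1 was 2.87 ± 0.23 (adjusted p = 3.32e-06), 7.33-fold, and 2.49 on total counts. It was the largest log2 fold change among the 10 members in that comparison on both scales, and against vehicle Day 0 it was 2.65 ± 0.26 (adjusted p = 3.02e-05). Without irradiation the sign of its differences at the 2 higher doses turned with the scaling. In 100 mg/kg Day 1 mice Slc40a1 passed as higher (0.60 ± 0.12, adjusted p = 6.66e-04) and on total counts as lower (-0.77 ± 0.15, adjusted p = 2.34e-04), and at 200 mg/kg the values were 0.50 ± 0.13 (adjusted p = 0.00370) and -1.02 ± 0.14 (adjusted p = 1.30e-05). Against Fth1 in the same library Slc40a1 was lower at both doses with no overlap, with a log2 ratio of -7.34 ± 0.19 at 100 mg/kg and -7.47 ± 0.37 at 200 mg/kg against -5.55 ± 0.20 in vehicle Day 1 mice (exact permutation p = 0.00216 for each), and in irradiated vehicle mice it was higher, at -4.04 ± 0.97 (exact p = 0.0130, Benjamini-Hochberg 0.0357). At 200 mg/kg on Day 0 this ratio was also lower than in vehicle Day 0 mice, with a difference of -0.82 and no overlap (exact p = 0.00216). On Day 0 Slc40a1 was at 30.6 to 62.7 (median 37.0) CPM in vehicle mice, 24.7 to 32.7 (median 26.8) at 50 mg/kg, 23.8 to 31.5 (median 29.1) at 100 mg/kg and 25.6 to 42.6 (median 29.9) at 200 mg/kg, and the 50 mg/kg value, -0.56 ± 0.15 (adjusted p = 0.0280), was 0.13 on total counts (adjusted p = 0.483). The 50 mg/kg call was also lost without any one of mice 1, 4, 5, 6 and 15, the log2 fold change then lying between -0.63 and -0.41 over all single mice left out.

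Slc11a1 (ENSMUSG00000026177, chr1:74375195-74386062, plus strand) encodes NRAMP1, which moves divalent metals out of the phagosome of macrophages and neutrophils. It was at 11.4 to 21.2 (median 16.7) CPM in vehicle Day 0 and 14.0 to 21.9 (median 18.8) in vehicle Day 1 mice. Vehicle mice after irradiation held 53.2 to 126 (median 85.1) CPM and irradiated 200 mg/kg mice 45.0 to 128 (median 59.5), with each irradiated mouse above each unirradiated one on this scale. Here too the share of all genes with that separation was not determined. On total counts the ranges overlapped, the lowest irradiated mouse being at 32.0 and the highest unirradiated one at 37.6 CPM (50 mg/kg, Day 0). The rise was 2.27 ± 0.23 against vehicle Day 1 (adjusted p = 1.28e-05), 1.90 on total counts, and 2.52 ± 0.25 against vehicle Day 0 (adjusted p = 3.26e-05). Slc11a1 was the 1 member that passed as lower with BIO300 on Day 1. The 100 mg/kg group held 8.85 to 20.5 (median 11.3) CPM and the 200 mg/kg group 8.56 to 17.7 (median 11.5), and both overlapped vehicle on this scale, with differences of -0.49 ± 0.20 (adjusted p = 0.0462) and -0.45 ± 0.18 (adjusted p = 0.0444). On total counts the log2 fold changes were -1.86 ± 0.25 and -1.95 ± 0.23, while without the mice with liver transcripts the adjusted p rose to 0.0822 and 0.0802. With filterByExpr Slc11a1 did not pass at either dose, while with DESeq2 and with median-of-ratios size factors it passed as lower at both. When single mice were left out, the adjusted p ran from 9.31e-04 to 0.0938 at 100 mg/kg, over 0.05 without any one of 9 of 12 mice (25, 27, 29, 30, 37, 39, 40, 41, 42), and from 0.0111 to 0.0912 at 200 mg/kg, over 0.05 without any one of 7 (25, 27, 30, 43, 44, 45, 47). The 50 mg/kg groups held 13.8 to 18.9 (median 15.6) CPM on Day 0 and 15.0 to 24.3 (median 16.5) on Day 1, and the 100 and 200 mg/kg groups of Day 0 12.2 to 22.3 (median 18.1) and 11.5 to 16.1 (median 13.5). The log2 ratio of Slc11a1 to Slc40a1 within a library was -0.82 ± 0.11 in vehicle Day 1 mice, -1.97 ± 0.42 at 100 mg/kg, -1.81 ± 0.31 at 200 mg/kg and -1.43 ± 0.12 in irradiated vehicle mice, each of the 3 without overlap with vehicle Day 1 (exact permutation p = 0.00216 for each). The vehicle groups also differed from each other, with -1.28 ± 0.19 on Day 0 and no overlap (exact permutation p = 0.00216). Irradiated vehicle mice differed from vehicle Day 0 mice by -0.15 (exact permutation p = 0.139).

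Of the regulators, Aco1 (ENSMUSG00000028405, chr4:40143081-40198338, plus strand) encodes iron regulatory protein 1, a cytosolic aconitase when it holds an iron-sulphur cluster and an RNA binder when it does not. Vehicle Day 1 mice held 5.83 to 11.0 (median 8.26) CPM, 50 mg/kg 6.91 to 9.73 (median 8.09), 100 mg/kg 12.1 to 24.9 (median 14.7) and 200 mg/kg 10.5 to 13.0 (median 11.6). It passed as higher at 100 mg/kg (0.98 ± 0.19, adjusted p = 5.32e-04) and 200 mg/kg (0.55 ± 0.16, adjusted p = 0.00772), and had the opposite sign on total counts, -0.38 (adjusted p = 0.108) and -0.94 (adjusted p = 2.98e-04). On Day 0 it was at 8.65 to 31.5 (median 8.83) CPM in vehicle mice, 6.89 to 9.14 (median 8.57) at 50 mg/kg, 6.94 to 14.1 (median 8.90) at 100 mg/kg and 6.13 to 11.8 (median 8.74) at 200 mg/kg. Irradiated vehicle mice held 6.82 to 82.0 (median 11.0) CPM and irradiated 200 mg/kg mice 7.62 to 38.1 (median 14.5). The highest Aco1 level in 9 of the 10 groups was in a mouse with liver transcripts. Its irradiation value against vehicle Day 1 was 1.49 ± 0.57 (adjusted p = 0.0466), while without the mice with liver transcripts it no longer passed, at 0.20 (adjusted p = 0.427). Without irradiated mouse 51 alone it was 0.63 (adjusted p = 0.146), and leaving out mouse 49 or any one of the 6 vehicle mice also ended the call.

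Ireb2 (ENSMUSG00000032293, chr9:54863789-54912530, plus strand) encodes iron regulatory protein 2, which is known to be controlled by degradation when iron is plentiful. It was the flattest member, with group medians from 42.4 CPM at 50 mg/kg on Day 1 to 53.3 in irradiated vehicle mice. With edgeR and TMM it passed in none of the 11 pairs of groups. It did pass as higher at 100 and 200 mg/kg on Day 1 with DESeq2, with median-of-ratios size factors and with filterByExpr. All 10 members passed there with the first 2 of these, 9 as higher, and 9 with filterByExpr, all as higher. Day 0 mice were at 39.8 to 57.7 (median 45.4) CPM with vehicle, 43.5 to 51.4 (median 45.9) at 50 mg/kg, 41.4 to 50.1 (median 43.9) at 100 mg/kg and 37.9 to 49.2 (median 43.6) at 200 mg/kg. Day 1 mice were at 43.7 to 50.4 (median 47.3) CPM with vehicle, 40.2 to 43.6 (median 42.4) at 50 mg/kg, 44.8 to 63.7 (median 48.2) at 100 mg/kg and 46.8 to 53.1 (median 50.0) at 200 mg/kg, and irradiated mice at 46.9 to 77.1 (median 53.3) with vehicle and 37.7 to 54.8 (median 44.2) with 200 mg/kg. This flatness was on the TMM scale, and on total counts Ireb2 passed as lower at 100 mg/kg (-1.20 ± 0.16) and 200 mg/kg (-1.36 ± 0.13) on Day 1 and as higher at 50 mg/kg on Day 0 (0.67 ± 0.12), where the medians over all genes were -1.76, -1.96 and 0.69.

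**Figure D2:**
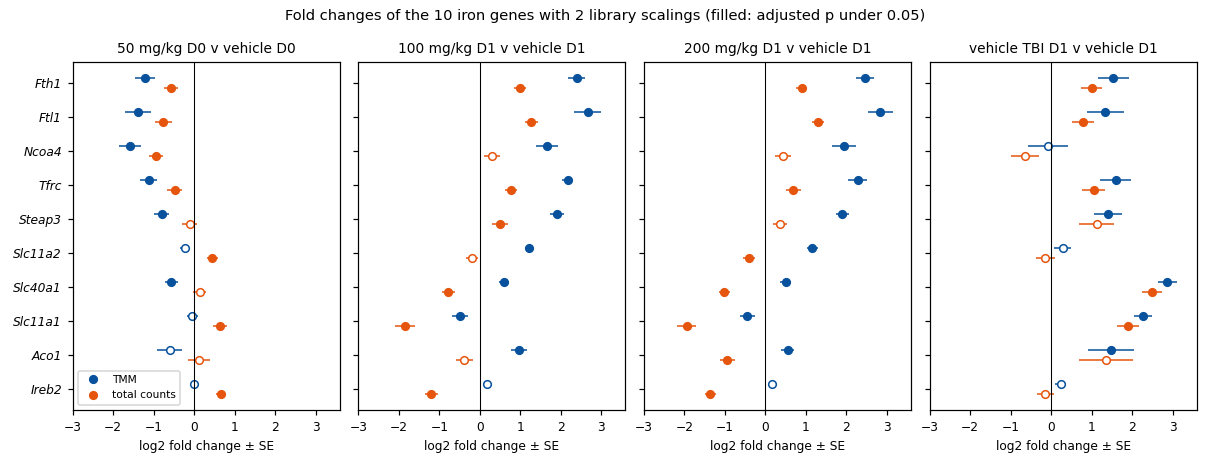
Log2 fold change of each member (horizontal axis, bars are SE) in 4 comparisons of 6 mice with 6, from edgeR with TMM scaling (blue) and with total counts (orange), filled where the adjusted p was under 0.05. In the Day 1 panels of 100 and 200 mg/kg the orange points lie to the left of the blue ones, which puts Slc11a2, Slc40a1, Aco1 and Ireb2 on opposite sides of 0, while Fth1, Ftl1 and Tfrc stay on the right.

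Whether the dose groups differed between days was tested directly, as the 50, 100 or 200 mg/kg difference from vehicle on Day 1 minus that on Day 0. At 50 mg/kg 7 members passed, all in the direction of a higher difference on Day 1, beside 17.5% of all genes, 10.5% in that direction and 7.04% in the other. Ncoa4 had the largest, 2.28 ± 0.44 (adjusted p = 7.51e-04), followed by Ftl1 with 2.22 ± 0.43 (adjusted p = 7.64e-04). Without the mice with liver transcripts 5 of the 7 passed, Slc40a1 (0.43, adjusted p = 0.134) and Slc11a2 (0.45, adjusted p = 0.0507) missing the threshold. At 100 mg/kg 8 passed beside 54.2% of all genes, 20.7% as higher and 33.5% as lower. At 200 mg/kg 8 passed beside 48.8%, 18.7% as higher and 30.2% as lower. At both doses they were the members other than Slc11a1 and Ireb2, all in the higher direction. For Ftl1 the differences were 2.49 ± 0.58 and 2.29 ± 0.45, and for Fth1 2.31 ± 0.43 and 1.95 ± 0.34, and these 2 genes also passed on total counts at each dose. The members' values moved with scaling here too, and on total counts 2 passed as higher and 2 as lower at 100 and at 200 mg/kg, and 3 and 3 at 50 mg/kg. Of all genes on that scale, 5.51% passed as higher and 60% as lower for 100 mg/kg, 4.47% and 57.8% for 200 mg/kg, and 3.02% and 48.9% for 50 mg/kg.

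The difference between 200 mg/kg and vehicle was also compared between irradiated and unirradiated Day 1 mice. Here 6 members passed, all in the direction of a smaller difference after irradiation, beside 33.9% of all genes, 12.1% in that direction. They were Ftl1 (-2.62 ± 0.56, adjusted p = 0.00120), Tfrc (-2.26 ± 0.49, adjusted p = 0.00137), Fth1 (-1.90 ± 0.48, adjusted p = 0.00385), Steap3 (-1.70), Ncoa4 (-1.69) and Slc11a2 (-1.01). On total counts Ftl1 and Tfrc still passed as lower, with -1.37 and -0.97, beside 3.03% of all genes, and Slc11a1 and Ireb2 passed as higher, beside 46.4%. Set directly against unirradiated 200 mg/kg mice, irradiated 200 mg/kg mice had higher Slc40a1 (2.15 ± 0.25, adjusted p = 9.04e-05) and Slc11a1 (2.41 ± 0.28, adjusted p = 7.71e-05) and lower Ncoa4 (-1.90 ± 0.36, adjusted p = 0.00200) and Ftl1 (-1.42 ± 0.46, adjusted p = 0.0370), with the same directions on total counts, and Slc11a2 passed as lower only with TMM (-0.85, and 0.059 on total counts). These were 5 of 10 members, beside 27.2% of all genes, 17.6% as higher and 9.58% as lower. Without the mice with liver transcripts Tfrc (-0.76, adjusted p = 0.0491) and Steap3 (-0.73, adjusted p = 0.0109) also passed as lower, making 7. On total counts 4 passed as higher, beside 46.5% of all genes, Ireb2 (0.72) and Aco1 (1.46) among them, and 2 as lower, beside 2.28%. Irradiated 200 mg/kg and irradiated vehicle mice overlapped in all 10 members, and the differences ranged from -0.63 ± 0.66 for Aco1 to 0.33 ± 0.44 for Fth1, with SEs of 0.18 to 0.66 over the members. None of these differences passed, and with such SEs larger ones could also have been missed here.

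Since the ferritin chains and Tfrc are abundant in reticulocytes, the red cell markers are given beside them. All 7 red cell markers used (4 globin genes, Alas2, Slc4a1 and Epb42) passed as higher at 100 and at 200 mg/kg on Day 1, and 3 of 7 as lower at 50 mg/kg on Day 0, while in irradiated vehicle against vehicle Day 1 mice 0 of 7 passed with edgeR, 0 had an unadjusted p under 0.05 and 0 passed with DESeq2. On total counts 4 passed as higher and 1 as lower at 100 mg/kg, 4 as higher at 200 mg/kg and 2 as lower after irradiation. Their summed level was 78536 to 116946 (median 99323) CPM in vehicle Day 1, 316278 to 584476 (median 399740.0) in 100 mg/kg Day 1, 275819 to 622995 (median 456603) in 200 mg/kg Day 1 and 18415 to 298365 (median 122609) in irradiated vehicle mice. Each member was therefore also set against the geometric mean of 3 red cell genes (Alas2, Slc4a1 and Epb42) in the same library, a measure added after the data were seen. The 4 globin genes are not in this mean, and ratios to them were not computed. The median globin share of counts was 9.76% in vehicle Day 1, 15.9% at 100 mg/kg, 16.9% at 200 mg/kg and 9.23% in irradiated vehicle mice. Against these 3 genes Ftl1 remained higher than vehicle on Day 1 at 100 mg/kg, by 1.24, and 200 mg/kg, by 0.98 (log2, exact permutation p = 0.00216 for both), as did Fth1 at 100 mg/kg, by 0.96 (exact p = 0.00216). At 200 mg/kg the Fth1 difference was 0.59 (exact p = 0.0195) and missed a Benjamini-Hochberg value of 0.05 (0.0512). Between the vehicle groups, Day 1 minus Day 0, the difference was 0.55 for Fth1 (exact p = 0.0368, Benjamini-Hochberg 0.0810) and 0.38 for Ftl1 (exact p = 0.0779). For Slc11a1 it was 1.10 (exact p = 0.00433, Benjamini-Hochberg 0.0155) and for Ireb2 0.98 (exact p = 0.00866, Benjamini-Hochberg 0.0254). Ncoa4 differed less against the red cell genes, with ratios of -0.71 ± 0.24 in vehicle Day 1, -0.39 ± 0.13 at 100 mg/kg, -0.53 ± 0.07 at 200 mg/kg and -0.56 ± 0.35 in irradiated vehicle mice, and its differences past a Benjamini-Hochberg value of 0.05 over the 176 ratio tests were 0.32 at 100 mg/kg on Day 1 and -0.29 between irradiated and unirradiated 200 mg/kg mice. Tfrc was higher at 100 mg/kg by 0.75 (exact p = 0.00433) and at 200 mg/kg the value was 0.38 (exact p = 0.199).

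After irradiation the same ratio was higher than in vehicle Day 1 mice for Fth1 by 1.82, for Ftl1 by 1.58, for Tfrc by 1.85, for Slc40a1 by 3.34 and for Slc11a1 by 2.72, each without overlap (exact permutation p = 0.00216). Steap3 was higher by 1.73 (exact p = 0.00649). The values were 1.38 for Aco1, 0.71 for Slc11a2, 0.71 for Ireb2 and 0.15 for Ncoa4, none past the test (exact p = 0.327 to 0.433). The share of all genes that differ on this ratio was not determined in any comparison. A lower level of the 3 red cell genes also raises the ratio. Slc40a1 and Slc11a1 were lower against the red cell genes in unirradiated BIO300 mice than in vehicle mice on Day 1, with differences of -0.83 and -1.98 at 100 mg/kg and -1.32 and -2.31 at 200 mg/kg (exact p = 0.00649 for Slc40a1 at 100 mg/kg and 0.00216 for the others). At 200 mg/kg on Day 0 Slc40a1 (-0.82, exact p = 0.00216), Aco1 (-0.88, exact p = 0.00433) and Slc11a1 (-0.75, exact p = 0.0108) were also lower. Tfrc was lower against them in irradiated 200 mg/kg than in irradiated vehicle mice, by a log2 difference of -0.52 (exact p = 0.0173, Benjamini-Hochberg 0.0462), with overlap between the groups. At 50 mg/kg on Day 0, where the ferritin chains and Ncoa4 fell in CPM, the ratio to red cell genes was higher by 0.60 for Fth1 (exact p = 0.0108), and was 0.37 for Ftl1 (exact p = 0.0563) and 0.23 for Ncoa4 (exact p = 0.141). The other members rose more, Ireb2 by 1.85, Slc11a1 by 1.82 and Slc11a2 by 1.63, each without overlap (exact p = 0.00216). Aco1 rose by 1.43, Slc40a1 by 1.31 and Steap3 by 1.07 (exact p = 0.00649 for each). For Tfrc the value was 0.73 (exact p = 0.0216, Benjamini-Hochberg 0.0544).

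**Figure D3:**
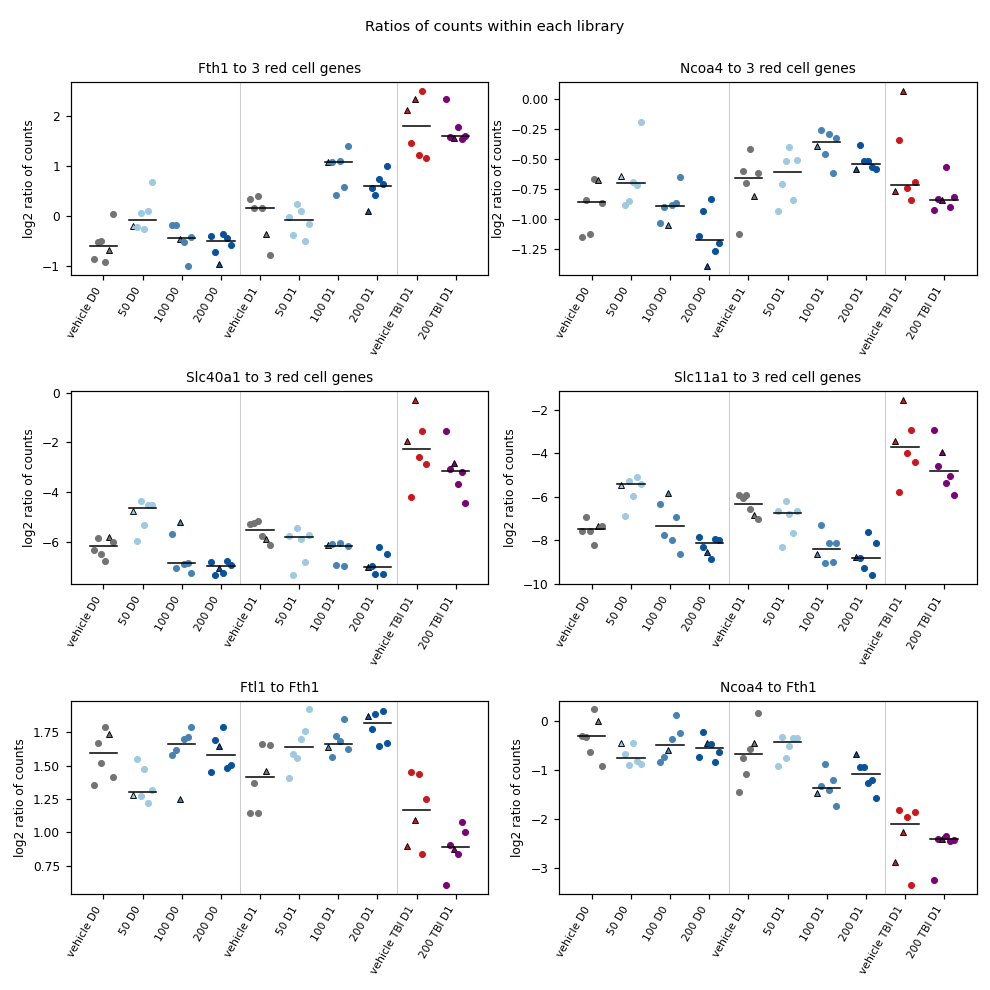
Log2 ratios of counts within each library (vertical axes) for the 10 groups, 1 point per mouse, bars for medians and black-edged triangles for mice with liver transcripts. Fth1 stands higher against 3 red cell genes in the irradiated groups and, on Day 1, at 100 mg/kg, while the 200 mg/kg points overlap those of vehicle, Ncoa4 differs less between groups, and the lower panels show Ftl1 and Ncoa4 lowest against Fth1 in the irradiated mice.

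Markers of other blood cells moved with the same groups, and their part in the members' differences was not tested. Platelet markers passed as higher in 7 of 7 at 100 and 200 mg/kg on Day 1 and after irradiation, with a summed level of 1837 to 3672 (median 2207) CPM in vehicle Day 1 and 13119.9 to 22918 (median 20397) in 200 mg/kg Day 1 mice. All 8 B cell and all 8 T cell markers passed as lower in those 3 comparisons. In 50 mg/kg Day 0 mice, where 6 members passed as lower, 7 of 7 platelet markers passed as lower and 5 of 8 B cell markers as higher, against 0 of 7 and 8 of 8 on total counts. Of the 8 T cell markers 0 passed with TMM and edgeR, 5 had an unadjusted p under 0.05 and 2 passed with DESeq2, and 8 passed as higher on total counts. Neutrophil markers passed as higher in 8 of 8 in irradiated vehicle against vehicle Day 1 mice, their summed level going from 434 to 706 (median 582) CPM to 1183 to 6669.9 (median 4595), and 7 of 8 did on total counts. At 100 mg/kg on Day 1, 3 of 8 passed as higher with TMM, and 5 of 8 as lower on total counts, and at 200 mg/kg 3 as higher and 1 as lower with TMM, and 8 of 8 as lower on total counts. Of 8 monocyte markers, 2 passed with TMM as higher and 3 as lower after irradiation, and 1 and 7 at 100 mg/kg on Day 1, and 1 and 4 at 200 mg/kg, where Slc11a1 also passed as lower. Their summed level went the other way. It was 421 to 706 (median 595) CPM in vehicle Day 1 mice and 868 to 1922 (median 1005) at 100 mg/kg. At 200 mg/kg it was 1084 to 1334 (median 1284), and in irradiated vehicle mice 945 to 4273 (median 1173). Tissue macrophage markers, given because ferroportin is abundant in such cells, summed to 0.545 to 28.9 (median 2.59) CPM in vehicle Day 1 and 2.13 to 969 (median 4.00) in irradiated vehicle mice, the highest sums being in mice with liver transcripts, and 2 of 8 passed as higher after irradiation with edgeR, while 8 had an unadjusted p under 0.05 and 5 passed with DESeq2. In irradiated against unirradiated 200 mg/kg mice, 7 of 8 neutrophil and 4 of 8 tissue macrophage markers passed as higher, and 5 of 7 red cell, 8 of 8 B cell and 2 of 8 T cell markers as lower. On total counts these were 8 and 7 as higher and 3, 4 and 2 as lower, and 6 of 7 platelet markers passed as higher. Without the mice with liver transcripts the irradiation rise was 3.05 for Slc40a1 (adjusted p = 1.86e-07) and 2.41 for Slc11a1 (adjusted p = 9.15e-07). Of 16 hepatocyte markers, whose summed level was 0.762 to 2127 (median 2.99) CPM in vehicle Day 1 and 3.80 to 37158 (median 5.98) in irradiated vehicle mice, 0 passed with edgeR after irradiation, 0 had an unadjusted p under 0.05 and 3 passed with DESeq2.

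Of 60 other iron genes on the list, 57 had enough counts to be tested in most comparisons. At 100 mg/kg on Day 1, 21 passed as higher and 7 as lower, and at 200 mg/kg 21 and 8, beside the shares of all genes given above. All counts of these other iron genes are with TMM, and how many pass on total counts was not determined. On that scale 7.72% and 6.63% of all genes passed as higher at these doses, so the balance of higher and lower may depend on scaling. The group on mitochondrial iron and iron-sulphur clusters held 9 of its 14 higher at each dose, among them Abcb10, an inner-membrane transporter of erythroid cells (2.18 ± 0.12 at 100 mg/kg, adjusted p = 9.64e-09), and Hscb, a co-chaperone of cluster assembly (2.13 ± 0.15, adjusted p = 6.10e-08). Among uptake genes 5 of 11 were higher, with Exoc6, a subunit of the exocyst that helps recycle transferrin receptor, at 2.09 ± 0.14 at 100 mg/kg and the endosomal sorting nexin Snx3 at 2.12 ± 0.18 at 200 mg/kg. The haem transporter Slc48a1 (2.24 ± 0.23 at 200 mg/kg, adjusted p = 1.35e-06) and the porphyrin exporter Abcg2 (2.19 ± 0.14 at 100 mg/kg) rose as well, and all of these passed as higher on total counts.

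At 50 mg/kg on Day 0, 16 of the 57 passed as lower and 2 as higher, 8 of the 16 in the mitochondrial group, beside 9.87% of all genes as lower and 4.21% as higher. The log2 fold change was -1.67 ± 0.37 for the mitochondrial iron importer Slc25a37 (adjusted p = 0.0110), -1.69 ± 0.29 for the cluster carrier Glrx5, -1.55 ± 0.26 for the cluster scaffold Iscu, -1.53 ± 0.29 for Slc48a1 and -1.58 ± 0.25 for biliverdin reductase Blvrb, each passing on total counts as well. With edgeR 0 passed on Day 0 with 100 mg/kg or with 200 mg/kg, at 50 mg/kg on Day 1, between the vehicle groups and between the irradiated groups, where 2, 12, 17, 14 and 3 had an unadjusted p under 0.05 and 0, 0, 4, 7 and 0 passed with DESeq2.

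Irradiated vehicle mice had 18 of 57 higher and 2 lower than vehicle Day 1 mice, beside 24.4% and 22.4% of all genes, with 8 of 11 uptake genes higher and 1 of 14 mitochondrial genes. Steap4, a ferrireductase of the same family as Steap3, rose by 4.48 ± 0.52 (adjusted p = 3.24e-05), haptoglobin (Hp), which binds free haemoglobin, by 4.32 ± 0.64 (adjusted p = 1.70e-04, and 3.08 without the mice with liver transcripts), and lipocalin 2 (Lcn2), a neutrophil protein that binds iron-loaded bacterial siderophores, by 3.98 ± 0.37 (adjusted p = 8.40e-06). Haem oxygenase 1 (Hmox1) rose by 2.10 ± 0.32 and Fbxl5, the ligase subunit that marks Ireb2 protein for degradation, by 1.30 ± 0.26 (adjusted p = 0.00122). Against vehicle Day 0 mice Glrx5 passed as lower (-1.50 ± 0.39), while Steap4, Lcn2, Hmox1 and Fbxl5 passed as higher with 3.83 ± 0.66, 3.13 ± 0.48, 2.58 ± 0.29 and 1.54 ± 0.27. Irradiated against unirradiated 200 mg/kg mice gave 10 higher and 17 lower, 9 of the lower ones mitochondrial, beside 17.6% and 9.58% of all genes, with Steap4 at 4.30 ± 0.30 and Hp at 3.00 ± 0.29 higher and Glrx5 at -2.72 ± 0.30 and Slc25a37 at -2.45 ± 0.44 lower.

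The orders of the members' levels were compared over the 10 groups ranked by mean log2(CPM + 1). Fth1, Ftl1 and Tfrc ran from 200 mg/kg and 100 mg/kg Day 1 through the 200 mg/kg and vehicle irradiated groups to 50 mg/kg Day 0 at the bottom. Steap3, Slc11a2 and Ncoa4 also had the 2 Day 1 groups at the top and 50 mg/kg Day 0 at the bottom, but for Slc11a2 and Ncoa4 unirradiated groups came next. Slc40a1 and Slc11a1 had the 2 irradiated groups first, and Aco1 and Ireb2 the irradiated vehicle group first. Of 90 neighbouring pairs in these orders, 4 passed a 2-sided exact permutation test (p = 0.00216 each, adjusted p = 0.0487 over the 90 pairs). They were the steps from 100 mg/kg Day 1 down to irradiated 200 mg/kg in Ftl1 (1.29) and Tfrc (0.70), from irradiated 200 mg/kg down to 100 mg/kg Day 1 in Slc40a1 (1.97), and from irradiated 200 mg/kg down to vehicle Day 1 in Slc11a1 (1.81). The other neighbouring pairs did not pass this test, and with CPM scaled to total counts none of the 90 passed.

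The genes whose group means followed each member most closely were sought among 6738 genes averaging at least 10 CPM, by the root mean square (RMS) difference of centred means of log2(CPM + 1) over the 10 groups. For Ncoa4, whose own means varied by 0.829 RMS, the nearest were Riok3 (difference 0.0272), Paqr9 (0.0509) and Ccndbp1 (0.0676). For Tfrc (own variation 0.920) they were Xk (0.0609), Pfkfb1 (0.0721) and Nfix (0.0791), and for Fth1 (0.993) Nfix (0.0802), Kif14 (0.0890) and Pcyt1b (0.0912). Ftl1 (1.04) was nearest to Abcb6 (0.0802), to its own pseudogene Ftl1-ps1 (0.0878) and to Iqgap3 (0.0901). Slc40a1 (1.05) was nearest to Pygl (0.109), Mtus1 and Gcnt2, and Slc11a1 (0.915) to Lpcat2 (0.0747), Nfam1 and Tgfbi. Steap3 (0.655) had Frmd4a, Tuba1c and Abhd5 nearest, Slc11a2 (0.366) Agfg2, Drosha and Rbm27, Aco1 (0.346) Vwa8, Gpd2 and Gna12, and Ireb2 (0.114) Vps35, Zfc3h1 and Lrrc58.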

How the data were processed

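Whole blood from 60 mice, collected from the inferior vena cava into PAXgene tubes, was profiled by RNA sequencing. The authors deposited 10 tables of raw counts per gene for 49315 Ensembl genes, the unit used here, made per the study's methods with Trimmomatic 0.36, STAR 2.5.2b on GRCm38 and featureCounts of Subread 1.5.2. The annotation release and the strand setting of the counting are not given in the sources used here, so reads of a gene and an antisense partner may not be separable. The labels name poly(A) selection, while the methods describe stranded total RNA with ribosomal and globin depletion, and the effect of either on the globin levels was not tested. The deposited tables of the authors' comparisons hold fold changes, p-values and normalized values, and none of those values was used. Symbols for 18516 gene IDs came from these tables and for 30480 from the supplied gene-name table, and 319 had none. Of 60 mouse columns repeated over several tables, all 60 held identical counts.

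Genes with at least 10 counts summed over the mice of a comparison were fitted with edgeR 4.0.16 (TMM, glmQLFit and glmQLFTest, 2-sided, R 4.3.3, limma 3.58.1), using only the groups compared, with Benjamini-Hochberg adjustment over all genes tested and a threshold of 0.05. Single values over groups of 6 were tested with exact 2-sided permutation tests of the difference in means (SciPy 1.17.1), on log2(CPM + 1) or on log2 ratios of counts with 0.5 added. All 10 members passed the filter on low counts in every comparison. Alternatives were DESeq2 1.42.0, median-of-ratios size factors, total counts, edgeR's filterByExpr, no filter, all 60 mice in 1 fit, leaving out the mice with liver transcripts, and leaving out single mice.

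The 10 members and all lists of other iron genes and cell markers were chosen with earlier results of these data known, so they are not independent of them. In addition, 1 gene of the red cell marker list is not reported here, and the list and the red cell ratio were computed without it. Every member is named in every comparison. Of the other iron genes, up to 5 per comparison were named that passed, had at least 10 CPM in 1 group and did not overlap, in order of absolute log2 fold change. The test was tried on simulated counts with 200 changed genes. For 200 mg/kg against vehicle on Day 1, with 22689 genes, 56% of changes of 1 and 79% of changes of 2 on the log2 scale were recovered, and for irradiated against unirradiated vehicle mice, with 24511 genes, 4% and 60%. For the difference between days at 200 mg/kg, with 25174 genes, 26% and 77% were recovered. Unchanged genes that passed numbered 13, 0 and 10 in these simulations, in the order given. Mice of a group are separate animals by their labels, and housing and sequencing batches are not given there.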

Additional observations from a re-analysis of the deposited data

Results flagged for a closer look

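In 17 of 100 combinations of a member and a group, 1 mouse stood apart from the other 5 by Dixon's criterion. For independent, normally distributed values chance meets it in about 1 group in 20. The CPM were not logged and the same mice recur over several members, so that rate is no measure of chance here. Mouse 22 of the 200 mg/kg Day 0 group was the highest in Fth1 (4728 CPM, next 2903), Ftl1 (16356, next 9103), Tfrc (741, next 344) and Steap3 (13.1, next 7.69). Mouse 2 of the 50 mg/kg Day 0 group was the highest in Fth1 (1539.8 CPM, next 924) and Ftl1 (4499.8, next 2309).

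Mice with liver transcripts were the highest in Aco1 in the vehicle Day 0 (mouse 17, 31.5 CPM, next 10.5), 100 mg/kg Day 1 (mouse 37, 24.9, next 15.8), irradiated vehicle (mouse 51, 82.0, next 30.3) and irradiated 200 mg/kg groups (mouse 57, 38.1, next 15.3). The same held for Steap3 in mouse 17 (9.31 CPM, next 5.69) and mouse 51 (30.2, next 12.2). What liver transcripts add to these levels was not tested beyond leaving the mice out.

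The remaining mice apart from their group were mouse 26 of vehicle Day 1, lowest in Fth1 (1111 CPM, next 1486), mouse 25 of vehicle Day 1, highest in Slc11a2 (10.3, next 9.69), mouse 47 of 200 mg/kg Day 1, highest in Tfrc (1877, next 1047), mouse 31 of 50 mg/kg Day 1, highest in Slc40a1 (45.0, next 33.7), and mouse 38 of 100 mg/kg Day 1, highest in Slc11a1 (20.5, next 12.3).

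Differences that themselves differed between groups, by edgeR's test of the difference, numbered 29. For the dose difference from vehicle on Day 1 minus that on Day 0, the log2 values at 50 mg/kg were 1.81 for Fth1, 2.22 for Ftl1, 1.56 for Tfrc, 0.60 for Slc40a1, 0.52 for Slc11a2, 1.20 for Steap3 and 2.28 for Ncoa4. At 100 mg/kg they were 2.31 for Fth1, 2.49 for Ftl1, 1.88 for Tfrc, 1.10 for Slc40a1, 1.02 for Slc11a2, 1.43 for Aco1, 1.68 for Steap3 and 1.66 for Ncoa4. At 200 mg/kg they were 1.95 for Fth1, 2.29 for Ftl1, 1.75 for Tfrc, 0.83 for Slc40a1, 0.97 for Slc11a2, 1.10 for Aco1, 1.62 for Steap3 and 1.65 for Ncoa4. For the 200 mg/kg difference in irradiated minus unirradiated mice they were -1.90 for Fth1, -2.62 for Ftl1, -2.26 for Tfrc, -1.01 for Slc11a2, -1.70 for Steap3 and -1.69 for Ncoa4. On total counts Slc40a1 and Slc11a2 had the opposite sign at all 3 doses, Aco1 at 100 and 200 mg/kg, and Slc11a2 in the irradiation difference. Without the mice with liver transcripts, Slc40a1 (0.43, edgeR adjusted p = 0.134) and Slc11a2 (0.45, adjusted p = 0.0507) no longer passed at 50 mg/kg.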

How the results depend on the processing

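Of 167 counts of members or neighbouring pairs recomputed under alternatives, 161 stayed within 1.5 times the count given. DESeq2 passed 2 members at 50 mg/kg on Day 1 and 1 (Ftl1) between the vehicle groups, against 0 with edgeR. With all 60 mice in 1 fit, 4 members passed the difference between days at 50 mg/kg, and on total counts 4 passed it at 100 and 4 at 200 mg/kg, while 0 neighbouring pairs passed. The cause was not tested. Leaving out single mice gave 5 to 6 members at 50 mg/kg on Day 0, 8 to 9 at 100 and at 200 mg/kg on Day 1, 5 to 7 after irradiation and 0 to 0 between the irradiated groups.

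Total counts turned 26 member values, and no other alternative turned one that passed in either fit. These were at 50 mg/kg on Day 0 Slc40a1 (0.13), Slc11a1 (0.65) and Slc11a2 (0.45), at 100 mg/kg on Day 1 Slc40a1 (-0.77), Slc11a2 (-0.18), Ireb2 (-1.20) and Aco1 (-0.38), at 200 mg/kg on Day 1 Slc40a1 (-1.02), Slc11a2 (-0.41), Ireb2 (-1.36) and Aco1 (-0.94), and in irradiated against unirradiated 200 mg/kg mice Slc11a2 (0.059) and Ireb2 (0.72). In the differences between days they were Slc40a1 (-0.41), Slc11a1 (-0.97) and Slc11a2 (-0.52) at 50 mg/kg, Slc40a1 (-0.40), Slc11a2 (-0.41), Ireb2 (-1.25) and Aco1 (-0.14) at 100 mg/kg, and Slc40a1 (-0.44), Slc11a2 (-0.35), Ireb2 (-1.04) and Aco1 (-0.19) at 200 mg/kg, and in the irradiation difference Slc11a2 (0.20) and Ireb2 (0.86). The within-library ratios, chosen after seeing the data, do not depend on this choice.

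Of 150 member results each, DESeq2 gained 9 calls, total counts gained 7 and lost 18 apart from those turned, and leaving out the mice with liver transcripts gained 3 and lost 5. Over all genes, 3449 passed at 50 mg/kg on Day 0, 12976 on total counts and 1286 with all 60 mice in 1 fit. At 50 mg/kg on Day 1, 2 passed against 1205 with DESeq2, 91 with filterByExpr, 12 with no filter, 9 with median-of-ratios factors, 1 with all 60 mice and 0 on total counts or without the mice with liver transcripts. DESeq2 gave 777 between the vehicle groups, and 5 at 100 and 4 at 200 mg/kg on Day 0, against 0. With all 60 mice 1 passed at 200 mg/kg on Day 0 and 207 between the irradiated groups, against 0. Irradiated against unirradiated 200 mg/kg mice gave 6412, 11518 on total counts and 11090 with all 60 mice, and the difference between days at 50 mg/kg gave 4607, 13663 and 1698. Depth bears most on Slc11a1, Steap3 and Aco1, whose lowest counts in a mouse were 79, 83 and 101. No paired analysis was possible because each mouse carries its own number and the groups share none.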
